A study of Cucumis sativus var. sativus with 11 samples.

Results

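The comparison is of 3 cucumber ovaries taken 1 day after pollination with 3 ovaries of the same age, 1 day after anthesis, that had received no pollen. These 6 libraries are chosen by their labels out of the 11 in the series. All ovaries came from Elem Female, a line whose plants bear female flowers and set fruit only after pollination, so the pollen came from a separate pollinator genotype. Groups outside the comparison were 2 ovaries pollinated while older fruits were on the plant (inhibited ovaries) and 3 ovaries at anthesis, the day the flower opens. Plants were mature, 1 month old and grown in a net house, ovaries were collected early in the morning, and each library was made from RNA of an individual ovary. No label says if different plants gave these ovaries, and p-values thus reflect variation among single ovaries, which may be technical in part.

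In most flowering plants the ovary pauses in growth at anthesis. Pollen tubes grow through the style to the ovules, and pollination and fertilization release the ovary into fruit growth, with auxin and gibberellin as the best known signals. In a line that cannot set fruit without pollen, an ovary that receives none stops growing and ages. Genes are given by identifier, because the table pairs none with a name and 0 identifiers matched the reference gene table. For the same reason no list of hormone, cell cycle or tissue marker genes could be followed, and the ovary label could not be checked against marker genes.

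The 6 libraries held 19527426 to 26456643 reads assigned to genes, and 19849 to 20447 genes had at least 1 read. All 6 were sequenced on lane 3. Reads that could not be given to 1 gene (the unassigned share) made up 21.1, 12.4 and 20.5% in pollinated replicates 1 to 3, against 12.8, 10.9 and 16.8% in unpollinated replicates 1 to 3. The second index sequence of the library had 1 form in the 3 pollinated ovaries and in unpollinated replicate 1, and another in unpollinated replicates 2 and 3 and in both inhibited ovaries. Unpollinated replicate 3 stood apart from its group. Its root mean square log2 difference over all genes was 0.564 from replicate 1 and 0.493 from replicate 2, while replicates 1 and 2 differed by 0.387. The 3 pollinated ovaries differed from each other by 0.410 to 0.438. Pairs of a pollinated and an unpollinated ovary differed by 0.557 to 0.754, and the 3 lowest of these 9 values, 0.557, 0.612 and 0.619, were the pairs with unpollinated replicate 3.

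Many genes differed a little and fewer differed a lot, and most of the larger differences were lower levels in pollinated ovaries. Of 18679 genes tested, 5651 were called, 30.3% (quasi-likelihood test of edgeR, with p adjusted after Benjamini and Hochberg and a threshold of 0.05), 2799 higher (15%) and 2852 lower (15.3%) in pollinated than in unpollinated ovaries. Most calls, 4706 or 83.3%, were under 2-fold. Genes called higher had a median log2 fold change of 0.45 and genes called lower one of -0.56. Past 2-fold the directions were no longer even: 293 genes were higher (1.57% of genes tested) and 652 lower (3.49%), so that 69.0% of these 945 genes (5.06% of genes tested) were lower. Past 4-fold, 89 genes were higher and 214 lower. At 16-fold or more the counts were similar in this fit, with 25 higher and 23 lower. Of these, 19 higher and 11 lower genes did not pass the low-count filter of the 6 compared libraries alone. Among genes chosen by those 6 libraries alone, 6 were higher and 12 lower at 16-fold or more.

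**Figure D1:**
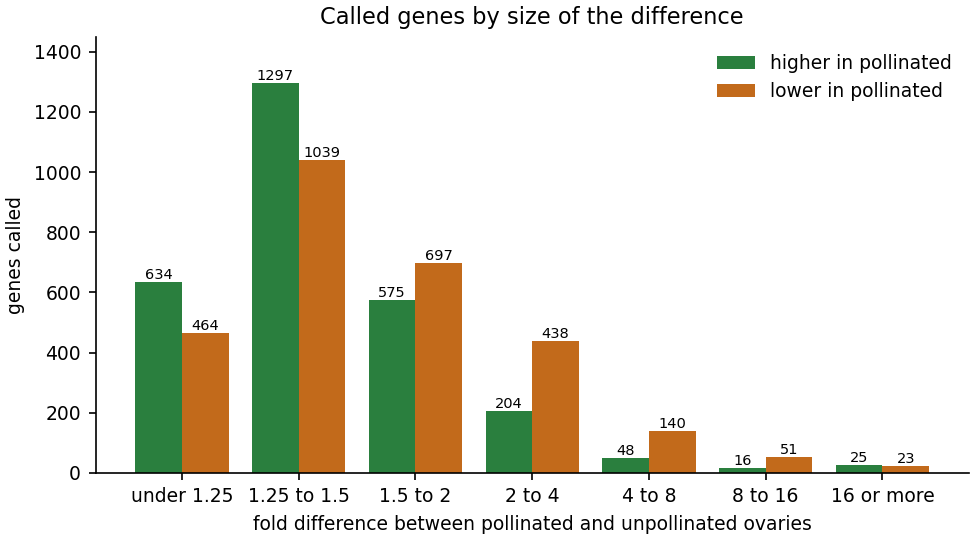
Number of genes called (vertical axis) by size of the difference between pollinated and unpollinated ovaries (horizontal axis), with genes higher in pollinated ovaries left and genes lower right in each class. Among differences under 1.5-fold more genes were higher, 634 and 1297 against 464 and 1039 lower. Between 2-fold and 16-fold more were lower, 438, 140 and 51 against 204, 48 and 16.

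The count of 5651 was 4944 without unpollinated replicate 3. It was 3360 without unpollinated replicate 2, 3663 without pollinated replicate 2, 3627 without pollinated replicate 3, 3439 without the libraries whose unassigned share was over 15%, and 1883 when the model held a term for the second index, a fit in which the contrast rests on unpollinated replicate 1. The lower genes made up 64.6 to 78.2% of those past 2-fold in every alternative run. The higher end was the fit with the index term, which had 159 higher and 571 lower genes.

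The groups of ovaries were also compared without a model. In 4294 genes (23%) all 3 pollinated ovaries lay above all 3 unpollinated ones in CPM (gene read counts scaled by TMM-adjusted library size), and in 4015 (21.5%) they lay below. Among the genes past 2-fold the groups overlapped in 11 of the 293 higher genes and in 97 of the 652 lower genes. In all of these 97 the lowest unpollinated ovary was replicate 3. The highest pollinated ovary was replicate 3 in 58 of them, replicate 1 in 21 and replicate 2 in 18. For genes that were not called, an interval of 1.96 standard errors either way was set around the log2 fold change. It stayed within 2-fold in 10866 of 13028 genes and within 1.5-fold in 8886. This interval uses a normal quantile and is somewhat narrower than a 95% interval of the test, so these counts are upper values.

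How readily a gene was called depended on its reads. Of genes with a mean under 1 CPM over all libraries, 11.3% were called, and of genes at 100 CPM or more, 42.4%. Differences past 2-fold were more frequent below 5 CPM than above it. They made up 4.73% higher and 6.56% lower of genes under 1 CPM, 4.07% and 8.54% of genes at 1 to 5 CPM, 1.25% and 3.84% of genes at 5 to 20 CPM, 0.643% and 1.71% at 20 to 100 CPM, and 0.280% and 0.801% of genes at 100 CPM or more. The excess of lower over higher genes was smallest under 1 CPM, at 1.39 lower genes for each higher one, and lay between 2.10 and 3.07 in the classes above. Past 2-fold, 40 of 293 higher and 45 of 652 lower genes passed the low-count filter only with the libraries outside the comparison. The part of these genes in the ratios was not tested.

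**Figure D2:**
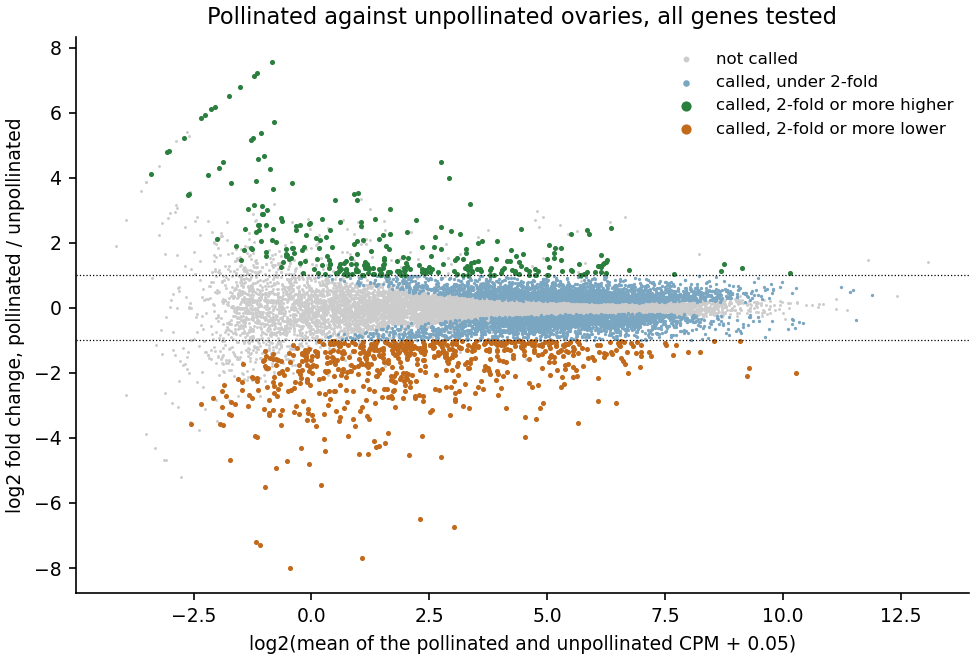
Log2 fold change of pollinated over unpollinated ovaries (vertical axis) against the log2 of the mean CPM of both groups plus 0.05 (horizontal axis) for the 18679 genes tested, 1 point per gene. Of the 652 lower genes past 2-fold, 97 had a mean under 1 CPM over all libraries, 235 one of 1 to 5 CPM and 20 one of 100 CPM or more. The highest positive values belong to genes with few reads. No read was found in any unpollinated ovary for 13 higher genes (12 of these passed the low-count filter only with the libraries outside the comparison).

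By share of reads, the 652 lower genes took 0.882, 0.637 and 0.611% of gene reads in pollinated replicates 1 to 3, against 2.08, 2.16 and 1.80% in unpollinated replicates 1 to 3. The 293 higher genes took 0.775, 0.828 and 0.874% in pollinated ovaries, against 0.387, 0.306 and 0.324% in unpollinated ones. These shares describe the genes as chosen. The groups outside the comparison entered the shared low-count filter and estimate of the spread, but not the contrast. The lower genes took 1.23 and 1.13% of reads in inhibited ovaries and 1.13, 1.42 and 1.11% at anthesis, between the levels of the compared groups. The higher genes took 0.676 and 0.708% in inhibited ovaries and 0.701, 0.640 and 0.802% at anthesis, which is nearer to the pollinated ovaries. In whole ovaries, fewer cells of a type and less RNA per cell cannot be told apart.

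The 4 named genes are the 2 in each direction with the largest differences in mean CPM among genes past 2-fold whose groups did not overlap. Csa4G295440 had 1157, 1651 and 1767 CPM in pollinated ovaries, against 990, 634 and 553 CPM in unpollinated ones. Every pollinated ovary was above every unpollinated one, with a difference of 1.07 ± 0.21 SE on the log2 scale (edgeR adjusted p = 0.00267). Inhibited ovaries had 1536 and 1599 CPM, within the range of pollinated ovaries, and anthesis ovaries had 2290, 2031 and 2720 CPM, above every later ovary. Every later ovary was thus below every anthesis ovary, and the lowest were those without pollen. The difference of pollinated from anthesis ovaries did not pass the test, however (edgeR adjusted p = 0.0576). When 1 library was left out, the log2 fold change of Csa4G295440, pollinated over unpollinated, ran from 0.91 to 1.36. It was under 2-fold without unpollinated replicate 3 (0.91), pollinated replicate 3 (0.95) or unpollinated replicate 2 (0.98). With a term for the second index its log2 fold change was 0.62 (edgeR adjusted p = 0.107), and it was called in the other 19 of 20 alternatives, whose adjusted p-values together with this one ran from 0.000363 to 0.107.

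Csa1G187170 showed another pattern. It had 1007, 632 and 727 CPM in pollinated ovaries, against 360, 325 and 328 CPM in unpollinated ones, 1.22 ± 0.16 SE higher on the log2 scale (edgeR adjusted p = 0.000198). Inhibited ovaries had 291 and 397 CPM and anthesis ovaries 306, 305 and 350 CPM. The 3 pollinated ovaries were the high samples, and the other 8 libraries lay between 291 and 397 CPM although both inhibited ovaries had received pollen. It was called in all 20 alternatives, at a log2 fold change of 0.88 without the libraries over 15% unassigned and of 1.01 to 1.36 when 1 library was left out.

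The genes named for lower levels were both high in unpollinated ovaries alone. Csa2G024440 had 766, 471 and 243 CPM in pollinated ovaries, against 1680, 2056 and 2235 CPM in unpollinated ones. On the log2 scale the difference was -2.01 ± 0.31 SE (edgeR adjusted p = 0.000615). Inhibited ovaries had 479 and 450 CPM and anthesis ovaries 342, 450 and 296 CPM, so every library other than the 3 unpollinated ones was at or below the highest pollinated value. Csa6G518000 had 402, 132 and 154 CPM in pollinated ovaries, against 753, 1222 and 945 CPM in unpollinated ones. This is a log2 difference of -2.09 ± 0.39 SE (edgeR adjusted p = 0.00192). It had 234 and 160 CPM in inhibited ovaries and 111, 186 and 92.4 CPM at anthesis. For both genes pollinated replicate 1 was the highest of its group, and without it the log2 fold changes were -2.48 and -2.77.

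**Figure D3:**
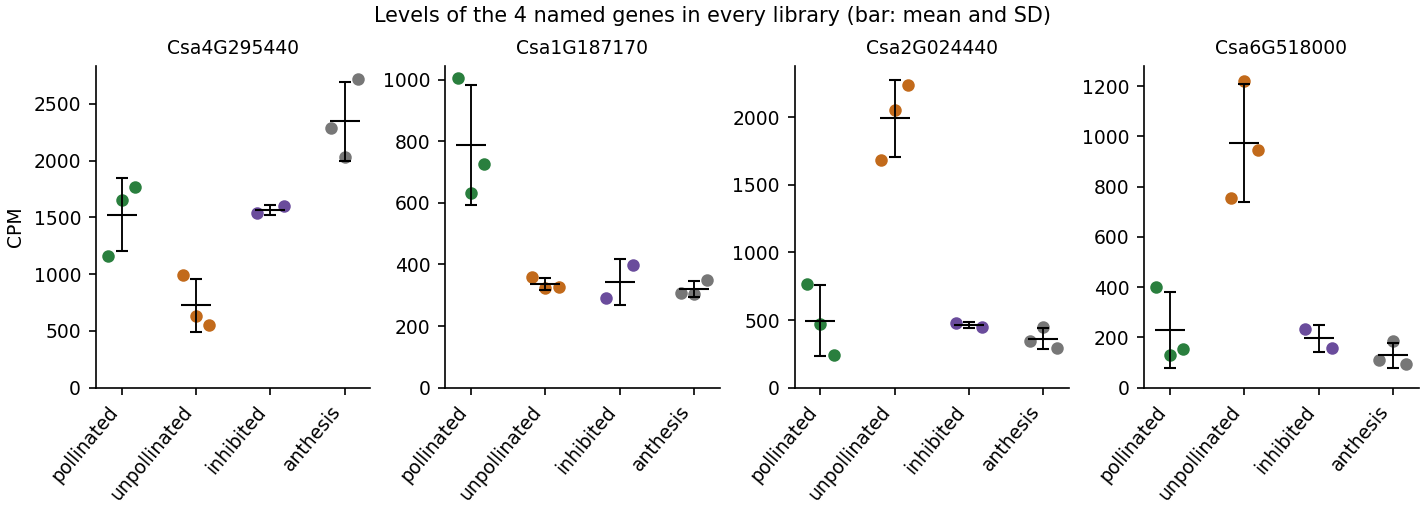
CPM (vertical axis, from 0, a separate scale per gene) of the 4 named genes in pollinated, unpollinated, inhibited and anthesis ovaries, 1 point per library, with the mean and SD of each group (n = 3, 3, 2 and 3). Csa2G024440 and Csa6G518000 are high in unpollinated ovaries, Csa1G187170 is high in pollinated ovaries, and Csa4G295440 is lowest in unpollinated ovaries and highest at anthesis.

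Whether the difference holds in an ovary not used to find it was read by leaving out each of the 6 libraries in turn. Genes past 2-fold were chosen in a fit without it, although the low-count filter had used all libraries, and the left-out ovary was placed on the log2 CPM axis of each gene, where 0 is the mean of unpollinated and 1 the mean of pollinated ovaries among the 5 others compared. The medians over genes describe the left-out library and carry no test. Over lower genes, pollinated replicates 1 to 3 lay at 0.74, 1.02 and 0.98, against 0.06, -0.11 and 0.32 for unpollinated replicates 1 to 3. Over higher genes, pollinated replicates lay at 0.82, 0.98 and 0.96, against 0.22, -0.03 and 0.20 for unpollinated ones. Every left-out ovary was thus nearer its own group at the median.

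Unpollinated replicate 1 has the index form of the pollinated ovaries. When it was left out, the genes were chosen between pollinated and unpollinated ovaries that differ in the index form as well. It was on the unpollinated side of the midpoint in 500 of 546 lower genes (91.6%) and in 236 of 299 higher genes (78.9%). Of the pollinated ovaries, replicates 1 and 3 had a raised unassigned share and replicate 2 did not. They were on the pollinated side in 79.4, 89.7 and 92.3% of lower genes when left out, in the order replicate 1, 3 and 2. For higher genes the values were 84.8, 91.0 and 89.0% in the same order. The part of the unassigned share in these values was not tested.

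The left-out ovary least like its group was unpollinated replicate 3. Without it, 750 genes were lower and 345 higher past 2-fold, and in 301 of the 750 lower genes (40.1%) it lay nearer the pollinated mean, against 8.42% of lower genes for replicate 1 and 1.46% for replicate 2. The 750 genes were split by the side on which replicate 3 lay, a division made after its values were seen. The 301 genes in which it lay on the pollinated side had an anthesis level at -0.14 at the median, past the unpollinated mean, and an inhibited level at 0.20. The 449 genes in which it stayed on the unpollinated side had an anthesis level at 0.60 and an inhibited level at 0.40. At the median of the first set, pollinated ovaries and replicate 3 were below an anthesis level that lay close to unpollinated replicates 1 and 2. At the median of the second set, all 3 unpollinated ovaries were above an anthesis level that lay nearer to pollinated ovaries.

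**Figure D4:**
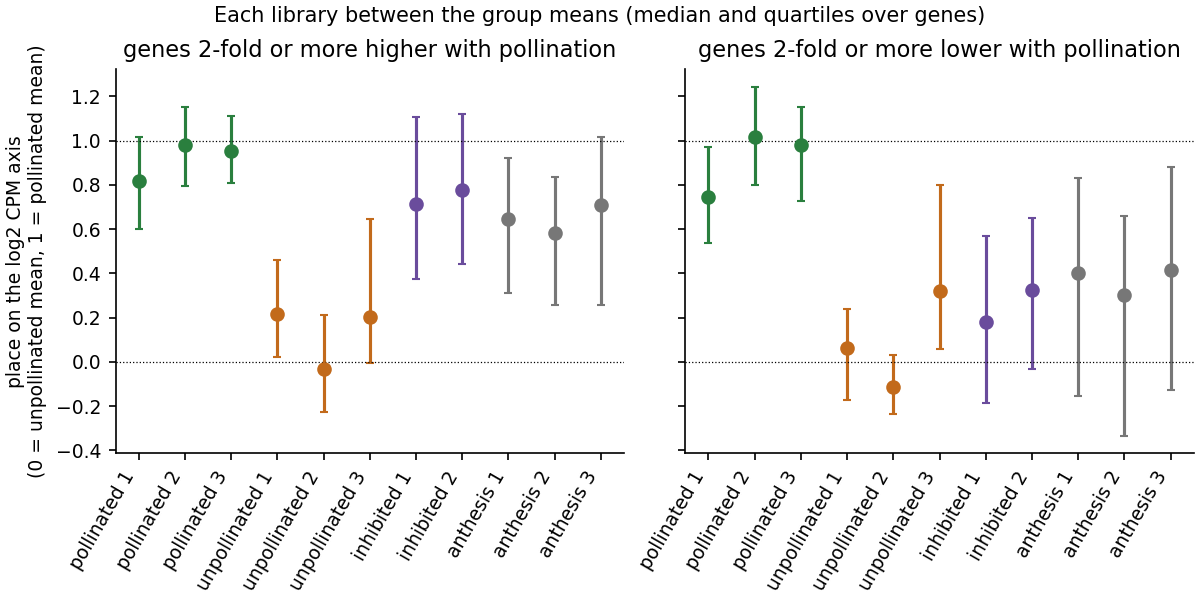
Place of each library between the unpollinated mean (0) and the pollinated mean (1) on the log2 CPM axis (vertical axis), as the median over genes with the lower and upper quartile, for genes past 2-fold higher (left) and lower (right) with pollination. Pollinated and unpollinated libraries were each placed with genes called and means found without them, and inhibited and anthesis libraries with the 293 and 652 genes. Unpollinated replicate 3 has the widest spread of its group, and inhibited libraries lie at 0.71 and 0.78 for higher genes and at 0.18 and 0.33 for lower genes.

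Inhibited and anthesis ovaries, placed on the same axis, fell on different sides of it for the higher and the lower genes. Over the 293 higher genes, inhibited ovaries lay at a median of 0.71 and anthesis ovaries at 0.66, both nearer the pollinated mean. Over the 652 lower genes inhibited ovaries lay at 0.27 and anthesis ovaries at 0.39, both nearer the unpollinated mean. Of the higher genes, 207 (70.6%) had an inhibited mean and 176 (60.1%) an anthesis mean on the pollinated side. Of the lower genes, 197 (30.2%) had an inhibited mean and 279 (42.8%) an anthesis mean on that side. These side counts include genes that passed the low-count filter only with the libraries outside the comparison. They were 40 of the 293 higher and 45 of the 652 lower genes, against 673 of all 18679 genes tested. The side counts without them are not given here. With genes chosen in a fit and filter of only the 6 compared libraries (248 higher and 578 lower), a setting added after the data were seen, inhibited ovaries lay at 0.68 and 0.31 and anthesis ovaries at 0.69 and 0.47 over higher and lower genes. Without unpollinated replicate 1 the place of anthesis ovaries over lower genes was 0.58, past the midpoint, and without replicate 3 it was 0.30. The side on which anthesis lay for the lower genes thus depended on single ovaries, while the place of inhibited ovaries over lower genes stayed between 0.25 and 0.38 when 1 compared library was left out.

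The place of inhibited and anthesis ovaries changed with the size of the difference. It is given for the genes chosen by the 6 compared libraries alone, because of the 41 genes 8-fold or more higher in the fit of all libraries 26 did not pass the low-count filter of those 6, and of the 74 genes 8-fold or more lower 26 did not. For the 191 genes 2-fold to 4-fold higher with pollination, median levels were 7.10 CPM in pollinated, 2.84 in unpollinated, 5.24 in inhibited and 5.18 at anthesis. For the 17 genes at least 8-fold higher they were 3.33 CPM in pollinated ovaries, 0.288 in unpollinated ones, 3.12 in inhibited ovaries and 0.455 at anthesis. By median place, these 17 genes were near the pollinated mean in inhibited ovaries (0.92). At anthesis they were on the unpollinated side of the midpoint (0.38). For the 410 genes 2-fold to 4-fold lower with pollination, median levels were 3.81 CPM in pollinated, 9.27 in unpollinated, 6.63 in inhibited and 6.68 at anthesis. For the 48 genes at least 8-fold lower they were 0.270, 4.07, 3.23 and 2.98 CPM in the same order of groups.

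**Figure D5:**
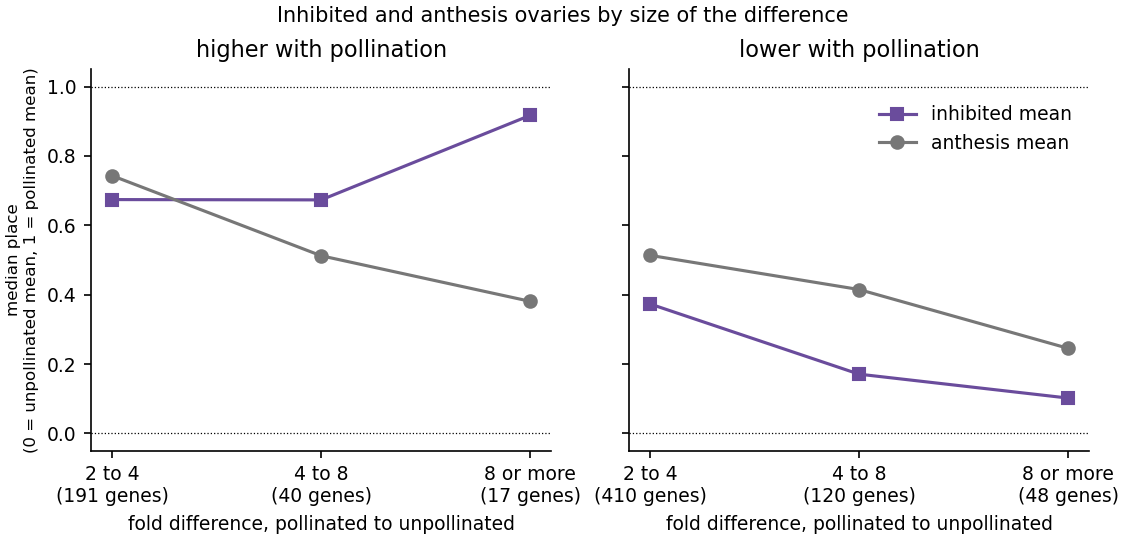
Median place of the inhibited mean (squares) and the anthesis mean (circles) between the unpollinated mean (0) and the pollinated mean (1) on the log2 CPM axis (vertical axis), by fold difference between pollinated and unpollinated ovaries (horizontal axis, number of genes in brackets), for genes chosen by the 6 compared libraries alone. For genes higher by 8-fold or more the inhibited mean lies at 0.92 and the anthesis mean at 0.38, and for genes lower by 8-fold or more they lie at 0.10 and 0.25. The class of 8-fold or more higher holds 17 genes only, and the place of genes near 0 reads depends on the prior count of 2.

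Inhibited and anthesis ovaries share no library with the contrast of pollinated with unpollinated ovaries, but in the fit of all 11 libraries they share the low-count filter and the spread with it. Of all genes tested, inhibited ovaries had 4% at higher and 3.36% at lower levels than anthesis ovaries in that fit (edgeR, adjusted p under 0.05). Of the 293 genes higher with pollination, 46 (15.7%) were called higher in inhibited than in anthesis ovaries and 10 (3.41%) lower, and of the 652 lower genes, 54 (8.28%) passed as higher and 18 (2.76%) as lower. The comparison was therefore repeated with the 248 and 578 genes chosen by the 6 compared libraries, and with inhibited and anthesis ovaries in a fit of those 5 libraries alone. There, 2.04% of all 18006 genes tested were called higher and 2.17% lower in inhibited ovaries. Of the 248 higher genes, 24 (9.68%) were called higher and 10 (4.03%) lower, with a median log2 fold change of 0.04. Of the 17 genes higher by 8-fold or more, 6 (35.3%) were called higher and 0 lower, with 10 and 2 at an unadjusted p under 0.05. Of the 578 lower genes, 49 (8.48%) were called higher and 38 (6.57%) lower, with a median log2 fold change of 0.15.

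Single libraries moved these counts. The share of all genes called is not given here for the fits without a library. It thus cannot be said if calls changed more among these genes than among all genes. Without anthesis replicate 3, 11 of the 248 higher genes and 3 of the 17 were called higher, and 7 of the 578 lower genes were called higher and 1 lower. That library was the only one sequenced on lane 2, so ovary and lane cannot be told apart there. Without anthesis replicate 1, 16 of the 248 and 28 of the 578 were called higher. Without inhibited replicate 1, 23 of the 578 were called higher and 14 lower, and without inhibited replicate 2, 12 were called lower. Leaving out a compared library changes the genes chosen: without unpollinated replicate 3, 52 of 723 lower genes were called higher and 84 lower, against 44 to 57 higher and 11 to 33 lower without another compared library. The balance of directions among lower genes thus rests on single libraries. Of genes 8-fold or more higher, 10 of 79 were called higher without unpollinated replicate 3, 5 of 26 without pollinated replicate 2, and 13 of 22 without pollinated replicate 3, so that share also moved with single ovaries. The index form was shared by all anthesis ovaries and differed from that of both inhibited ovaries. With it as a term in the fit of all libraries, 159 higher and 571 lower genes were past 2-fold. There, 3 higher genes and 1 lower gene were called higher in inhibited than in anthesis ovaries. The share of all genes called in that contrast with the index term is not given here. The index and the group cannot be told apart in that contrast without the unpollinated ovaries.

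Genes that changed were not spread evenly over the identifiers, a pattern looked at after the data were seen. As background, the digit after Csa is taken as a chromosome and the number as the order of genes along it. The files do not state this and no coordinates were used, so the counts below are of neighbours in identifier order. Of the 652 lower genes, 131 (20.1%) had a neighbour in identifier order, among tested genes, that was also past 2-fold lower, while 6.70% of all tested genes had such a neighbour. Of the 293 higher genes, 26 (8.87%) had a neighbour past 2-fold higher, against 3.07% of all tested genes. In 102 pairs of neighbours both genes were past 2-fold, and 90 of these pairs changed in the same direction, 76 lower and 14 higher. The longest run of neighbours was 5 lower genes and 3 higher genes, and 15 runs held 3 or more lower genes. Near-identical neighbouring copies could share reads, which was not tested. By chromosome digit, 1.18 to 1.83% of tested genes were past 2-fold higher and 3.09 to 4.02% lower. Among the 123 tested genes with UN in place of the digit, 7 were past 2-fold higher and 2 lower.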

How the data were processed

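RNA of 11 individual ovaries was sequenced. The deposited table holds raw counts of reads per gene (23248 genes, 1330 with 0 reads in all libraries). Tools named in the submitters' processing notes are STAR 2.5.0a, then HTSeq 0.6.1p1, and also DESeq2, with no role for each. The genome build, the annotation and whether counting used strand are each not given in the sources used here. How reads of overlapping genes were counted is thus not known. The 5 lines that name no gene were left out (10.8 to 24.8% of a library). A second table, of normalized counts, was not used.

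The filterByExpr function of edgeR 4.0.16 (R 4.3.3) left 18679 genes. All 11 libraries entered 1 quasi-likelihood fit with TMM factors and 4 group means, so all groups share the estimate of the spread. The threshold was 0.05 for p-values adjusted by the Benjamini-Hochberg method. Standard errors (SE) were derived from the F statistic and the log2 fold change. Log2 CPM used a prior count of 2. Chi-square statistics per gene were 10.0 or more for all 10 pairs of libraries within a group, so no pair agreed within sampling noise. Alternatives included DESeq2 1.42.0 and, added after the data were seen, genes chosen with filter, scaling and spread of only the 6 compared libraries. The pipeline was tested on simulated data.

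The 4 named genes are the 2 per direction with the largest difference in mean CPM among genes past 2-fold whose groups did not overlap. The comparison, rules and tests were chosen with earlier results of these data known. The labels name no molecular identifiers. The gene lists that had been fixed could not be used, because no identifier is paired with a name.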

Additional observations from a re-analysis of the deposited data

How the results depend on the processing

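No paired analysis was possible because the labels give no replicate numbers that are shared across groups. Size factors of DESeq2, the DESeq2 test, no low-count filter, a fit of only the 6 libraries, the unassigned share as a covariate, and fits without inhibited or without anthesis libraries left the counts of called genes and of genes past 2-fold within 1.5 times. The count of 5651 was 1883 when the second index entered the model and 3439 after removal of libraries with an unassigned share over 15%, and ran from 3360 to 5962 when 1 library was left out. Past 2-fold, the 293 higher genes became 159 with the index term (219 to 345 without 1 library), and the 652 lower genes ran from 480 to 750. Of 80 values for the named genes, 79 kept their call. For genes at 4-fold or more, the place of inhibited ovaries was 0.87 over higher and 0.11 over lower genes, and that of anthesis ovaries 0.28 and 0.15. These genes came from the fit of all libraries, whose low-count filter the inhibited and anthesis ovaries entered. Chosen by the 6 compared libraries alone, genes 4-fold to 8-fold higher lay at 0.67 in inhibited and 0.51 in anthesis ovaries. Those 8-fold or more higher lay at 0.92 and 0.38. For lower genes the places were 0.17 and 0.42 at 4-fold to 8-fold, and 0.10 and 0.25 at 8-fold or more. Past 2-fold and without 1 compared library, inhibited ovaries ran from 0.67 to 0.75 (higher genes) and from 0.25 to 0.38 (lower genes). Anthesis ovaries ran from 0.60 to 0.74 and from 0.30 to 0.58. In the contrast of inhibited with anthesis ovaries, the 46 higher genes called higher became 3 with the index term (31 to 47 without 1 library), and the 10 called lower became 18 with DESeq2, 2 with the index term and 4 with the covariate (4 to 22). The 54 lower genes called higher became 1 with the index term (16 to 81), and the 18 called lower became 40 with DESeq2, 36 without a filter and 5 with the covariate (3 to 100). With the index term edgeR called 0 of them lower, with 4 at an unadjusted p under 0.05, and 0 of 25 genes 8-fold or more higher were called higher (2 at an unadjusted p under 0.05; 12 to 27 without 1 library). With genes chosen by the 6 compared libraries alone, the place of anthesis ovaries over lower genes was 0.47, and 24 higher genes were called higher, 38 lower genes lower and 6 genes 8-fold or more higher called higher. Fewer low genes pass that filter (26 of 41 genes 8-fold or more higher do not). The cause of the other changes was not tested. For inhibited against anthesis ovaries, the share of all genes called is not given here for the fits with DESeq2, the index term or the covariate. Nor is it given for those without a filter or without 1 library. Of 13028 genes not called, 2162 had an interval, 1.96 standard errors either way, that reached 2-fold. The parts of read depth and of the spread between ovaries in this were not tested.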
